A study of Danio rerio with 9 samples.

Results

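The genes described here encode ion channels and the sodium pump of the zebrafish eye: potassium, calcium and sodium channel subunits, an HCN channel, chloride channels and exchangers, TRP channels, anoctamins and the alpha and beta subunits of the Na,K-ATPase. Members were the probe sets whose single gene symbol in the platform annotation begins with the names of these families. The rule uses names and not signals, but it was chosen with earlier results of these data known. The members numbered 56 probe sets for 45 genes, of 15617 probe sets on the array, and 7 of the genes had more than 1 probe set. The rule also takes 5 probe sets of trpc4apa and trpc4apb, whose products are adaptor proteins named after a TRP channel and not channels themselves. RNA came from whole eyes of wild type zebrafish at 3, 4 and 5 dpf (days post fertilisation), with 3 arrays for each age. All groups share the wild type genotype and differ in age, and neither the strain, nor any treatment, nor the number of fish in a sample is given in the labels. The methods of the study describe biological replicates for 3 and 5 dpf, while the 4 dpf arrays carry only a replicate number, so p-values that use them measure the spread between these samples, which may be technical.

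Voltage-gated channels open when the membrane potential changes. Potassium channels bring the membrane back to rest, sodium channels carry the rising phase of the action potential, and calcium channels couple voltage to transmitter release. HCN channels open when the membrane becomes more negative and shape the time course of light responses in photoreceptors. The Na,K-ATPase, built of a catalytic alpha and a glycosylated beta subunit, restores the sodium and potassium gradients, and in the mammalian photoreceptor inner segment it works against the steady current that flows in darkness. Whole eyes were used, so fewer cells of a type and less RNA per cell cannot be told apart in any value below.

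Signals are given on the log2 scale, so that a difference of 1 is a 2-fold change, and levels are not compared between probe sets because probes differ in how well they bind. Over the 9 arrays 37 of the 56 probe sets had a mean signal of at least 5, or 66.1% against 56.0% of the 15502 probe sets tested, and 12 had a mean under 3. The median of each array over all tested probe sets lay between 5.7 and 5.8, and 35 to 38 members reached 5 on each array. The lowest signal of an array was 0.95 to 1.00 at 4 dpf and 1.09 to 1.17 at 3 and 5 dpf, and any difference in how the 4 dpf arrays were processed cannot be told apart from age. Listed eye markers ran from bright to dim. The lens crystallin gene crybb1, the pigment epithelium gene rpe65a and the bipolar cell gene vsx1 were bright. The lens genes cryaba and gja8b, the pigment epithelium gene otx2a and the Muller glia gene gfap had means under 3 at every age. Markers of muscle and cartilage were lower at the later ages. Between 3 and 5 dpf 0 of 7 blood genes, 0 of 4 myelin genes and 0 of 6 lens genes were called. Over all probe sets tested 2.97% were called higher and 2.39% lower, so lists this short may hold no call. Uncalled differences of 5 minus 3 dpf ran from 0.08 (gja8b) to 1.93 (cryaa) in lens and from -3.09 (hbbe3) to 0.12 (gata1a) in blood. The log2 of the summed blood signal was lower too, with 13.6 to 14.31 at 3 dpf, 13.08 to 13.15 at 4 dpf and 12.33 to 13.39 at 5 dpf. Of 24 measured skeletal muscle genes (36 listed) 16 were lower at 5 than at 3 dpf, and the log2 of their summed signal ran from 13.45 to 13.89 at 3 dpf, from 10.59 to 11.00 at 4 dpf and from 10.22 to 11.86 at 5 dpf. Of 11 measured cartilage genes (17 listed) 8 were lower, with summed levels of 14.47 to 14.97, 11.96 to 12.21 and 11.40 to 11.76. The part of these tissues in the channel results was not tested.

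Between 3 and 5 dpf, 5 channel probe sets rose and 2 probe sets fell. The genes that rose were the potassium channels kcnh2a and kcnh6a, the HCN channel hcn2b, the calcium channel cacna1ha and the sodium channel subunit scn3b. The genes that fell were the sodium pump subunit atp1a1a.2 and the chloride intracellular channel clic1. A call here means a Benjamini-Hochberg adjusted p under 0.05 over all 15502 probe sets, from limma fitted to the 6 arrays, together with a change of at least 2-fold. Differences are 5 minus 3 dpf. The text of the study, which writes of 3 versus 5 dpf, does not state the direction of its own fold changes. Over all probe sets tested 2.97% were called higher and 2.39% lower, so the 2 lower calls among 56 (3.57%) lie near that share and the 5 higher calls (8.93%) lie above it. Without the fold limit 10 members were higher (17.9%, against 5.7% of all probe sets) and 4 lower (7.14%, against 5.63%). The difference was positive in 36 of 56 members (64.3%, against 64.4% of all probe sets tested; 29 members after quantile normalization), and its median was 0.08 against 0.10 for all probe sets. Signals of the 2 ages did not overlap in 28 of 56 members, near the 55.4% of all probe sets tested.

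All 5 higher calls lay among the 18 potassium, HCN, calcium and sodium channel probe sets, where 17 differences were positive and the median was 0.44. Of these 18 probe sets 8 had a mean under 5, and after quantile normalization kcnk5a, kcnn1b, cacna1c and cacng1a, all with means under 3, turned negative, which left 13 positive differences and a median of 0.45. Of the 10 with a mean of at least 5, 9 were positive under quantile normalization. The share of positive differences over all probe sets was not computed after quantile normalization, so these counts have no such share beside them. The other 38 members held both lower calls, and their median was 0.00. The families were drawn up with earlier results of these data known. The pooled families are exactly those that held a higher call. Where the higher calls lie thus follows from the grouping, and the medians of the groups depend on it. The contrast is given as counts with no test.

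**Figure D1:**
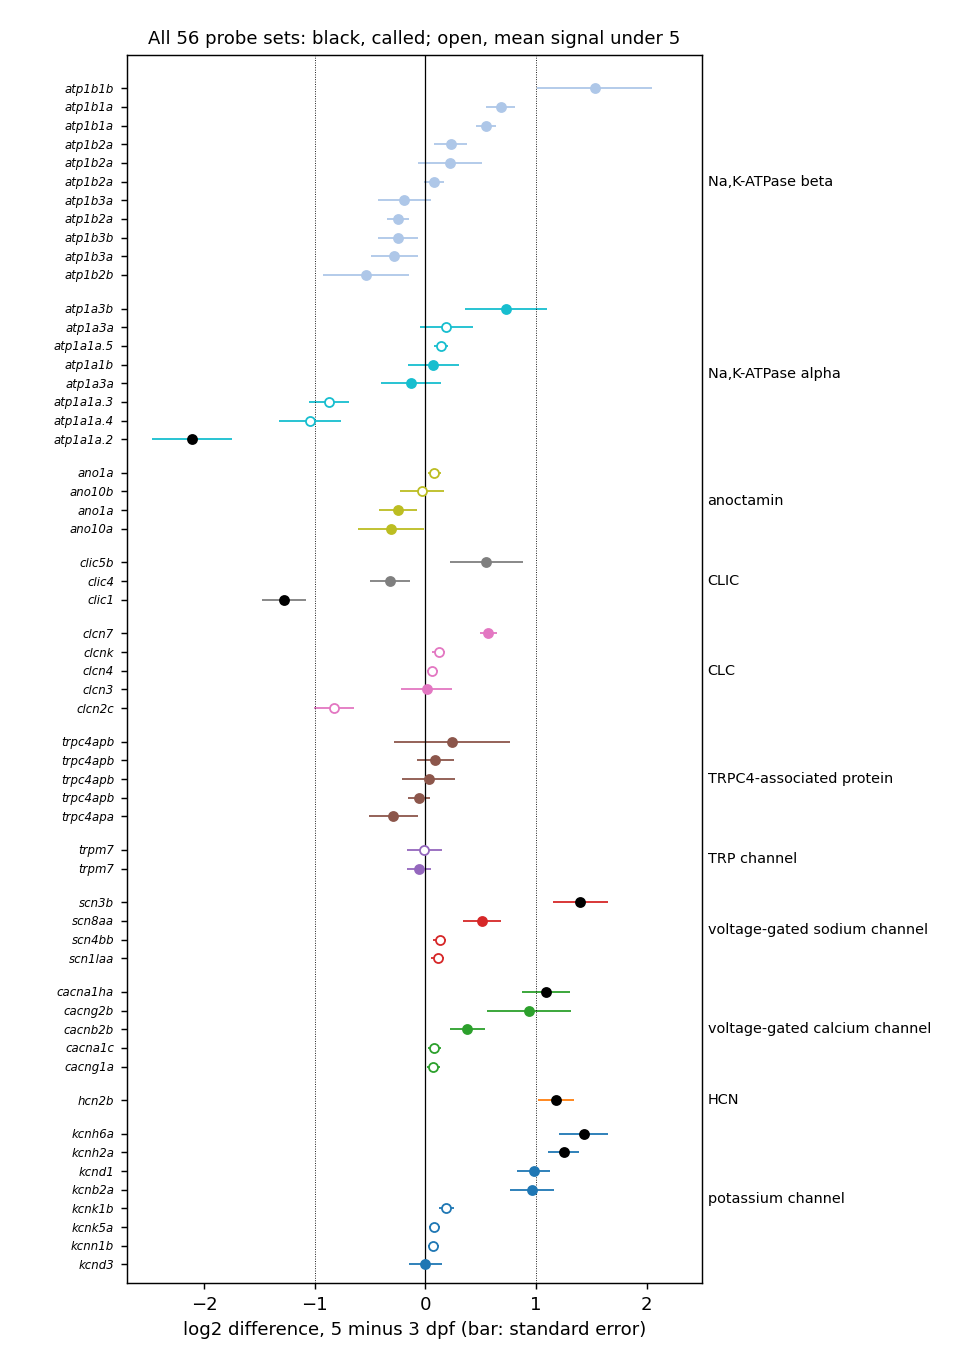
Log2 difference between 5 and 3 dpf (5 minus 3, x axis) of each of the 56 probe sets, grouped by family, with the standard error from limma as a bar and dotted lines at a 2-fold change. Black points are the 7 called probe sets whatever their mean, open points are uncalled probe sets with a mean signal under 5, and the black points at the right belong to kcnh2a, kcnh6a, hcn2b, cacna1ha and scn3b.

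Among the 8 potassium channel probe sets the median difference was 0.58, and 2 were called. The gene kcnh2a encodes an ERG-type channel, whose human counterpart ends the cardiac action potential. Its signals were 10.03, 10.02 and 10.15 at 3 dpf, 10.77, 11.08 and 11.35 at 4 dpf and 11.08, 11.28 and 11.58 at 5 dpf. All arrays at 4 and 5 dpf lay above all those at 3 dpf, while 4 and 5 dpf overlapped. The rise from 3 to 5 dpf was 1.25 (SE 0.14, adjusted p = 0.0099), or 2.38-fold, and it was the only one of the 7 calls that held with each of the 6 arrays left out (1.12 to 1.37).

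The second ERG-type gene, kcnh6a, carries the repolarising current of the zebrafish heart. Its signals were 4.14, 4.1 and 3.68 at 3 dpf, 5.65, 5.66 and 5.43 at 4 dpf and 5.50, 5.69 and 5.02 at 5 dpf. The 3 dpf arrays were again the low ones, with no overlap. The difference was 1.43 (SE 0.22, adjusted p = 0.020), or 2.70-fold. It ran from 1.29 to 1.63 with 1 array left out, and the call was lost on leaving out replicate 2 of 3 dpf (1.5), replicate 3 of that age (1.29) or replicate 2 of 5 dpf (1.29), with adjusted p from 0.023 to 0.069 over the 6 omissions.

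The remaining potassium channels lay just under the fold limit or changed little. The Kv2-type delayed rectifier gene kcnb2a had 9.03, 8.91 and 8.86 at 3 dpf, 10.25, 9.91 and 9.84 at 4 dpf and 10.25, 9.94 and 9.50 at 5 dpf. Its 3 dpf arrays did not overlap with the later ones, and the difference of 0.96 (SE 0.20, adjusted p = 0.040) was 1.95-fold. It passed the limit at 1.16 without 5 dpf replicate 3 (adjusted p 0.023 to 0.13 over the omissions). The Kv4-type gene kcnd1, which encodes a fast inactivating A-type channel, was named after its values were seen. It had 4.84, 4.57 and 4.89 at 3 dpf, 5.39, 5.4 and 5.47 at 4 dpf and 5.52, 5.76 and 5.97 at 5 dpf, so that no ages overlapped, with a difference of 0.98 (SE 0.15, adjusted p = 0.019) and 1.97-fold. It too passed without 5 dpf replicate 1 (1.1), and after centring the arrays on a common median (1.00). Its relative kcnd3, also named afterwards, had a difference of -0.00 (SE 0.15) and overlapped at all ages. The leak channel genes kcnk1b and kcnk5a and the calcium-activated channel gene kcnn1b had means under 3.

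The single HCN member, hcn2b, rose. Its signals were 6.18, 5.76 and 5.69 at 3 dpf, 6.61, 7.11 and 6.44 at 4 dpf and 7.19, 7.09 and 6.89 at 5 dpf. The 3 dpf arrays lay below the others, and the middle age overlapped with the last. The difference of 1.18 (SE 0.16, adjusted p = 0.015) was 2.27-fold. Without 3 dpf replicate 2 (1.12) or 3 dpf replicate 3 (1.09) the call was lost, with adjusted p from 0.014 to 0.061 over the 6 omissions.

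Of 5 calcium channel probe sets 1 was called. The differences of cacna1ha, cacng2b and cacnb2b were positive, and those of the dim cacna1c and cacng1a were positive as deposited and negative after quantile normalization. The gene cacna1ha encodes the pore of a T-type channel, which opens at small depolarisations. Signals were 5.56, 5.59 and 5.57 at 3 dpf, 6.86, 6.25 and 6.85 at 4 dpf and 7.11, 6.66 and 6.22 at 5 dpf. The 3 dpf arrays were nearly equal and lay below the rest, and the 5 dpf arrays were widely spread. The difference of 1.09 (SE 0.22, adjusted p = 0.040) was 2.12-fold, the smallest of the 5 rises. The call held in 1 of 6 omissions, that of 5 dpf replicate 3, and the value ran from 0.87 without 5 dpf replicate 1 to 1.31, with adjusted p from 0.024 to 0.13. It was also lost when signals were quantile normalized (1.1, adjusted p = 0.065) and when signals under 4 were set to 4 (1.09, adjusted p = 0.091), a step that left its own signals as they were.

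The brightest calcium channel probe set was that of cacng2b, whose mammalian counterpart stargazin carries AMPA receptors to the synapse. It had 6.82, 6.57 and 6.81 at 3 dpf, 7.02, 7.90 and 7.56 at 4 dpf and 6.83, 8.27 and 7.92 at 5 dpf. The later arrays were all above those at 3 dpf, though 5 dpf replicate 1 only just. The difference of 0.94 (SE 0.38, adjusted p = 0.15) was not called, and became 1.36 without that array (adjusted p 0.018 to 0.31 over the omissions). The auxiliary subunit gene cacnb2b, named after its values were seen and known in mouse retina at the photoreceptor synapse, had means of 6.06, 6.35 and 6.44, with a difference of 0.38 (SE 0.16, adjusted p = 0.16). The probe sets of cacna1c, an L-type pore gene, and of cacng1a, a subunit of the skeletal muscle channel, had signals under 3 on all arrays.

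Sodium channel genes were represented by 4 probe sets, of which 1 was called. The gene scn3b encodes an auxiliary beta subunit that modifies the gating and surface level of the pore. Signals were 7.27, 6.80 and 6.93 at 3 dpf, 8.65, 7.91 and 8.05 at 4 dpf and 8.83, 7.96 and 8.42 at 5 dpf. All later arrays lay above the 3 dpf arrays, and replicate 1 was the highest at each age. The rise was 1.40 (SE 0.25, adjusted p = 0.028), or 2.64-fold. It ran from 1.19 to 1.62 with 1 array left out, and lost its call without 3 dpf replicate 1 (1.54), 2 (1.31) or 3 (1.37) or 5 dpf replicate 3 (1.40), with adjusted p from 0.032 to 0.11. Setting signals under 4 to 4 also ended it (adjusted p = 0.071). The pore gene scn8aa, for the channel of the axon initial segment in mammals and named after its values were seen, had 7.08, 7.60 and 7.53 at 3 dpf, 7.67, 7.87 and 7.85 at 4 dpf and 7.73, 7.97 and 8.03 at 5 dpf. Its 3 dpf arrays lay below the later ones, but the difference of 0.51 (SE 0.17, adjusted p = 0.11) was not called. The probe sets of scn1laa and scn4bb stayed under 3.

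**Figure D2:**
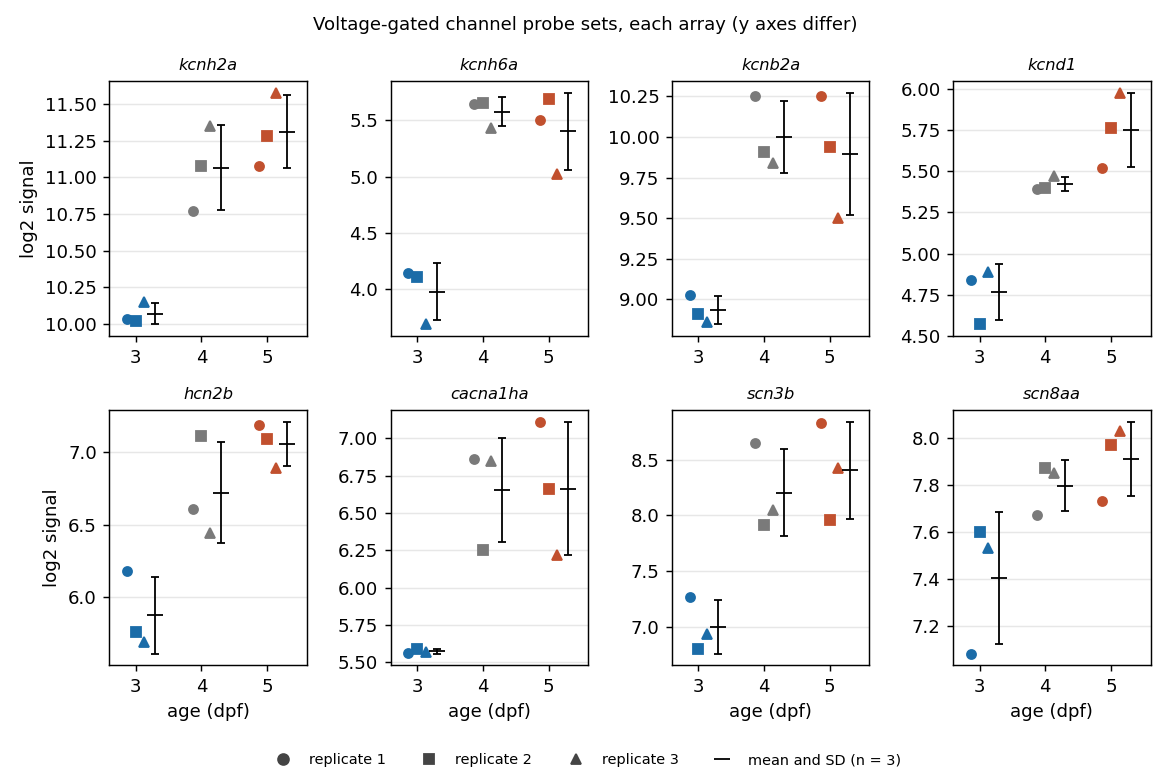
Deposited log2 signal (y axis, own scale in each panel) of each array against age in dpf for 8 channel probe sets, with marker shape for the replicate number and a bar for the mean and SD of 3 arrays. In all 8 panels the 3 dpf arrays lie below every later array, and in 7 of the 8, all but kcnd1, the 4 and 5 dpf arrays overlap. The panels are a choice, with kcnd1 and scn8aa named after their values were seen. The probe sets of kcnd3 and cacnb2b, whose 3 and 5 dpf arrays overlap, are not shown. Of all probe sets tested 55.4% had no overlap between 3 and 5 dpf.

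Markers of eye cell types were measured alongside. Of 18 measured inner retinal neuron genes (26 listed) 1 was higher at 5 than at 3 dpf, gad1b, and the median difference was -0.28, with summed levels of 15.51 to 15.59 at 3 dpf and 15.31 to 15.53 at 5 dpf. Of 18 measured photoreceptor genes (32 listed) 4 were higher, and the median was 0.17, with summed levels of 17.03 to 17.19 at 3 dpf, 17.45 to 17.5 at 4 dpf and 17.12 to 17.31 at 5 dpf. Of 10 measured pigment epithelium genes (18 listed) 1 was higher, stra6, and the median was 0.1. Their summed level ran from 14.49 to 14.53 at 3 dpf, from 15.04 to 15.3 at 4 dpf and from 14.86 to 15.37 at 5 dpf. The brightest gene in this sum was rpe65a, with means of 13.35 at 3 dpf and 14.19 at 5 dpf, and it was not called. The part of these cell types in the channel results was not tested.

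Chloride channel families held 1 of the 2 lower calls. CLIC proteins exist in soluble and membrane forms, and the called gene was clic1. Its signals were 8.72, 8.81 and 8.54 at 3 dpf, 8.45, 7.56 and 8.23 at 4 dpf and 7.43, 7.77 and 7.02 at 5 dpf. All 5 dpf arrays lay below all 3 dpf arrays, with 4 dpf between and overlapping 5 dpf. The signal fell by 1.28 (SE 0.20, adjusted p = 0.021), or 2.44-fold. Values ran from -1.46 to -1.09 with 1 array left out, and the call was lost without 3 dpf replicate 1 (-1.27), 2 (-1.22) or 3 (-1.36), with adjusted p from 0.028 to 0.078, and when signals under 4 were set to 4 (adjusted p = 0.057). Among epidermis and cornea genes 2 of 20 measured (23 listed), epcam and agr2, were called lower. Differences in this list ran from -4.12 (agr2) to 0.93 (krt94, not called), with a median of -0.12. Their summed levels were 15.48 to 15.59 at 3 dpf and 15.31 to 15.59 at 5 dpf. The part of these cells, and of the muscle and cartilage given above, in the fall of clic1 was not tested.

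The other CLIC genes were not called. The brightest of the family, clic5b, whose mouse counterpart sits at the base of hair cell stereocilia, had 8.19, 9.11 and 9.06 at 3 dpf, 8.77, 9.49 and 9.24 at 4 dpf and 8.89, 9.40 and 9.71 at 5 dpf. Its ages overlapped, replicate 1 was the lowest at each, and the difference was 0.55 (SE 0.33, adjusted p = 0.26). The difference for clic4 was -0.32 (SE 0.18, adjusted p = 0.25).

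Of 5 CLC probe sets, the brightest was that of clcn7, which encodes the chloride-proton exchanger of lysosomes. It had 8.59, 8.68 and 8.70 at 3 dpf, 9.25, 9.02 and 9.36 at 4 dpf and 9.36, 9.17 and 9.13 at 5 dpf. The 3 dpf arrays did not overlap with the others, and the difference of 0.57 (SE 0.08, adjusted p = 0.018) was 1.48-fold, under the fold limit. The endosomal exchanger gene clcn3 had means of 4.99, 5.25 and 5.0. The probe set of clcn2c, a plasma membrane channel gene, had a mean under 3 and was named after its values were seen. It had 3.58, 3.17 and 3.51 at 3 dpf and 2.77, 2.71 and 2.3 at 5 dpf, a difference of -0.83 (SE 0.18, adjusted p = 0.043). The probe sets of clcn4 and clcnk stayed under 3.

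TRP channels and anoctamins held no call. The brighter probe set of trpm7, which encodes a magnesium-permeable channel with a kinase domain that zebrafish pigment cells need, had 8.12, 8.14 and 8.20 at 3 dpf, 8.30, 8.15 and 8.15 at 4 dpf and 7.89, 8.30 and 8.10 at 5 dpf. The ages overlapped, and the difference was -0.06 (SE 0.11, adjusted p = 0.71). The brightest anoctamin probe set, that of ano10a, had means of 6.95, 7.04 and 6.64 and a difference of -0.31 (SE 0.30, adjusted p = 0.45). The calcium-activated chloride channel gene ano1a had 1 probe set with signals from 5.96 to 6.81 and another with signals from 2.31 to 2.49, and neither was called. The brightest adaptor probe set, that of trpc4apa, had means of 8.49, 8.42 and 8.20 and a difference of -0.29 (SE 0.22, adjusted p = 0.34).

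Of 19 Na,K-ATPase probe sets 0 rose and 1 fell between 3 and 5 dpf, and the median difference was 0.07. The fall was that of atp1a1a.2, an alpha subunit gene. In the RefSeq table for GRCz12tu 5 alpha genes, atp1a1a.1 to atp1a1a.5, lie next to each other on chromosome 1, while atp1a1b is on chromosome 9. In zebrafish several copies of this cluster are used by different ionocytes of the skin. The cluster had 4 members here, since no probe set had atp1a1a.1 as its single symbol. Whether the probes of the 4 members tell the copies apart was not tested.

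The signals of atp1a1a.2 were 6.33, 6.15 and 5.49 at 3 dpf, 4.33, 4.25 and 3.93 at 4 dpf and 4.37, 4.04 and 3.24 at 5 dpf. The 3 dpf arrays were all above the later ones, which overlapped with each other. From 3 to 5 dpf the signal fell by 2.11 (SE 0.36, adjusted p = 0.026), or 4.30-fold, the largest change of any member. The value ran from -2.35 to -1.78 with 1 array left out, and the call was lost without 3 dpf replicate 1 (-1.94), 2 (-2.03) or 3 (-2.35) or 5 dpf replicate 2 (-2.19), with adjusted p from 0.033 to 0.090.

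Its neighbours atp1a1a.3 and atp1a1a.4 were also highest at 3 dpf and were not called at 5 dpf. The values of atp1a1a.3 were 5.12, 5.20 and 4.97 at 3 dpf, 3.83, 3.79 and 3.72 at 4 dpf and 4.57, 4.18 and 3.92 at 5 dpf. All 3 ages were separate, with the lowest signals at 4 dpf, and the difference from 3 to 5 dpf was -0.87 (SE 0.18, adjusted p = 0.040), or 1.83-fold, which passed the limit at -1.05 without 5 dpf replicate 1 (adjusted p 0.020 to 0.13 over the omissions). The values of atp1a1a.4 were 5.31, 5.89 and 4.79 at 3 dpf, 3.96, 3.99 and 3.85 at 4 dpf and 4.31, 4.26 and 4.30 at 5 dpf. These ages were also separate and in the same order, and the difference was -1.04 (SE 0.28, adjusted p = 0.072). It was called in the fit to all 9 arrays (adjusted p = 0.021) and with trended, robust variances (adjusted p = 0.037). The copy atp1a1a.5 had signals from 2.34 to 2.56.

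Markers of skin ionocytes were represented by 3 of 13 listed genes, ca2, slc4a4b and ceacam1, and 0 were called. Their summed level was 10.68 to 11.22 at 3 dpf and 11.56 to 11.93 at 5 dpf. This sum is mostly ca2 (means 10.75 and 11.59), a gene not limited to ionocytes, with slc4a4b at 7.14 and 8.14 and ceacam1 at 2.58 and 2.75. The part of ionocytes, or of any other cells whose markers are given here, in the falls of the atp1a1a probe sets was not tested.

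The alpha genes outside the cluster were not called. The brightest, atp1a1b, had 9.54, 9.60 and 9.61 at 3 dpf, 9.52, 10.13 and 9.78 at 4 dpf and 9.14, 9.96 and 9.86 at 5 dpf. The ages overlapped and the difference was 0.07 (SE 0.23, adjusted p = 0.84). The neuronal gene atp1a3b had 5.65, 6.18 and 5.97 at 3 dpf, 6.40, 7.22 and 6.91 at 4 dpf and 5.86, 6.98 and 7.15 at 5 dpf. Replicate 1 was the lowest at each age and at 5 dpf fell within the 3 dpf range. The difference was 0.73 (SE 0.37, adjusted p = 0.21), and 1.13 without 5 dpf replicate 1, where it was called (adjusted p 0.033 to 0.40 over the omissions). The 2 probe sets of atp1a3a, also a neuronal alpha gene, had differences of -0.13 (SE 0.27) and 0.19 (SE 0.24).

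No beta subunit probe set was called among 11. The 2 probe sets of atp1b1a, the broadly used beta-1 gene, had the smallest adjusted p. The brighter had 10.93, 11.09 and 10.89 at 3 dpf, 11.24, 11.31 and 11.02 at 4 dpf and 11.57, 11.61 and 11.37 at 5 dpf, a difference of 0.55 (SE 0.09, adjusted p = 0.026). The other had 9.40, 9.07 and 9.0 at 3 dpf, 9.58, 9.34 and 9.57 at 4 dpf and 9.69, 9.90 and 9.93 at 5 dpf, a difference of 0.68 (SE 0.13, adjusted p = 0.035). Both probe sets had their 5 dpf arrays above all earlier ones, and both changes were under 2-fold.

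The paralog atp1b1b had the widest spread. It had 6.42, 4.55 and 5.18 at 3 dpf, 6.28, 5.75 and 5.74 at 4 dpf and 6.75, 7.41 and 6.60 at 5 dpf. The 5 dpf arrays were the highest, while 3 and 4 dpf overlapped, and the difference of 1.53 (SE 0.52, adjusted p = 0.11) was the largest positive difference of any member and was not called. It was called at 2.05 without 3 dpf replicate 1 (adjusted p 0.045 to 0.24 over the omissions) and in the fit to all 9 arrays (adjusted p = 0.046).

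The member with the highest mean signal was a probe set of atp1b2a, whose mammalian counterpart pairs with alpha-3 in photoreceptors. It had 12.35, 12.33 and 12.25 at 3 dpf, 12.42, 12.56 and 12.55 at 4 dpf and 12.26, 12.54 and 12.37 at 5 dpf. The 3 and 5 dpf arrays overlapped and the difference was 0.08 (SE 0.09, adjusted p = 0.51). The 4 probe sets of this gene had differences from -0.25 to 0.23, none called, and the 3 dpf means of these probe sets lay between 6.69 and 12.31. The other beta genes, atp1b2b, atp1b3a and atp1b3b, had differences from -0.54 to -0.19.

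**Figure D3:**
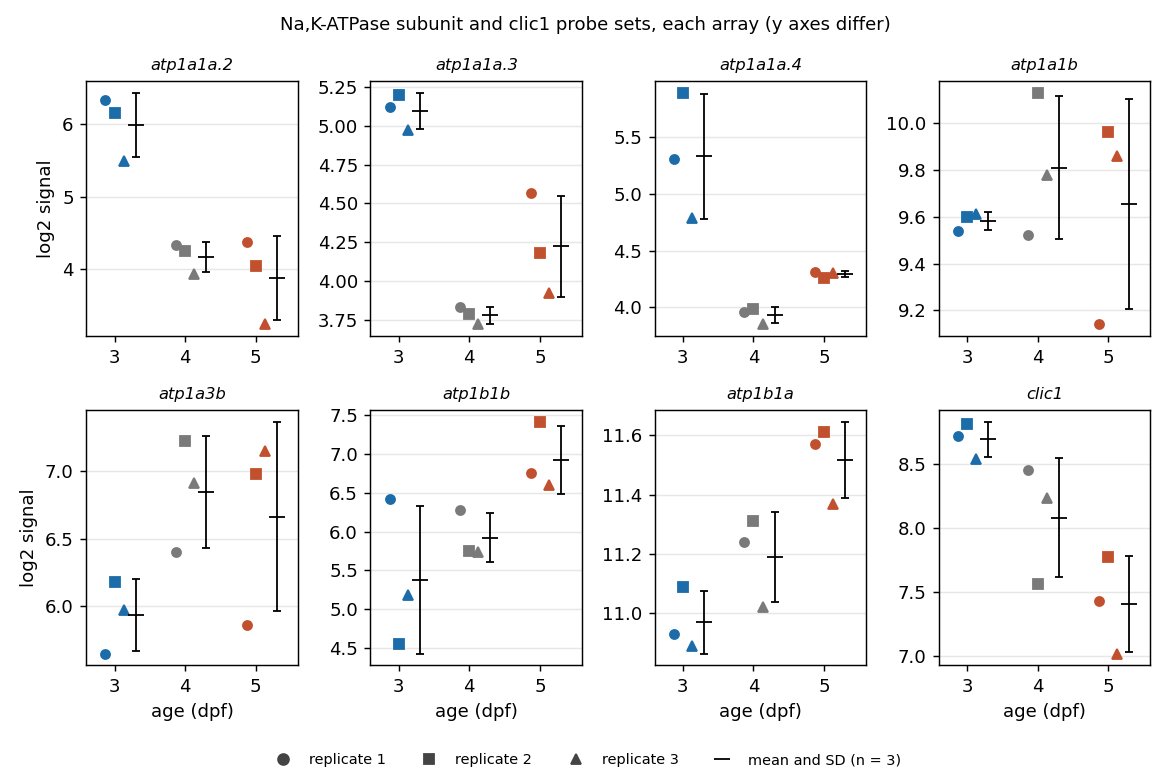
Deposited log2 signal (y axis, own scale in each panel) of each array against age in dpf for 7 Na,K-ATPase subunit probe sets and for clic1, with marker shape for the replicate number and a bar for the mean and SD of 3 arrays. The probe sets of atp1a1a.2, atp1a1a.3 and atp1a1a.4 are high at 3 dpf only, that of clic1 is lowest at 5 dpf, and in the atp1a1b and atp1a3b panels the 3 and 5 dpf arrays overlap.

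From 3 to 4 dpf, with the fit to all 9 arrays, 4 members rose and 3 fell. All tested probe sets gave 1.62% higher and 1.66% lower calls, and the median difference was 0.06 for members and 0.04 for all. This comparison shares the 3 dpf arrays with that of 5 against 3 dpf, and its values stand beside those above for each gene. The rises were those of kcnh6a, 1.61 (SE 0.20, adjusted p = 0.0039), scn3b, 1.2 (SE 0.27, adjusted p = 0.030), cacna1ha, 1.08 (SE 0.24, adjusted p = 0.029), and kcnb2a, 1.07 (SE 0.19, adjusted p = 0.014). The values of kcnh2a, 1.00 (SE 0.17, adjusted p = 0.011), and hcn2b, 0.84 (SE 0.20, adjusted p = 0.035), were under the fold limit. With 1 array left out kcnh6a held in 6 of 6 fits. The gene kcnb2a lost its call without 3 dpf replicate 3 (1.03) or 4 dpf replicate 1 (0.94), with adjusted p from 0.034 to 0.052 over the omissions. The calls of scn3b and cacna1ha each held in 1 of 6 fits, with values from 0.98 to 1.35 (adjusted p 0.045 to 0.092) and from 0.97 to 1.28 (adjusted p 0.032 to 0.10). That fit left out 3 dpf replicate 1 for scn3b and 4 dpf replicate 2 for cacna1ha, and setting signals under 4 to 4 ended both calls (adjusted p = 0.079 and 0.077).

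All 3 falls from 3 to 4 dpf were in the atp1a1a cluster. The signal of atp1a1a.2 fell by 1.82 (SE 0.32, adjusted p = 0.013), that of atp1a1a.4 fell by 1.40 (SE 0.24, adjusted p = 0.011) and that of atp1a1a.3 fell by 1.31 (SE 0.15, adjusted p = 0.0034). The calls of atp1a1a.3 and atp1a1a.4 held in 6 of 6 omissions, and that of atp1a1a.2 was lost without 4 dpf replicate 3 (-1.7), with adjusted p from 0.021 to 0.056. All 3 had 9-array means under 5. Their 4 dpf signals lay between 3.72 and 4.33, and how far such signals stand above background was not tested.

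From 4 to 5 dpf limma called 0 members, against 0.264% higher and 0.174% lower of all probe sets tested, and 9 members had an unadjusted p under 0.05 (16.1%, against 23.3% of all probe sets). Signals did not overlap in 13 of 56 members, against 33.6% of all probe sets. The 2 members with an adjusted p under 0.05 were the dim probe sets of clcnk, with a difference of 0.32 (SE 0.04, adjusted p = 0.0081), and cacng1a, with 0.21 (SE 0.04, adjusted p = 0.028). Between these ages the lowest signals of the arrays differ as well. The 12 members with a mean under 3 had signals from 1.85 to 3.58, and 11 of them did not overlap between 3 and 5 dpf, as did 87.1% of the 3528 tested probe sets with such a mean.

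Replicate 1 often stood at an edge of its age. Of the 37 members with a mean of at least 5, replicate 1 was the lowest at all 3 ages in 10 (27.0%, against 23.1% of 8685 tested probe sets) and the highest at all 3 in 7 (18.9%, against 16.7%). The low ones included scn8aa, cacnb2b, clic5b, atp1a1b and atp1a3b, and the high ones scn3b, kcnb2a and 3 probe sets of trpc4apb. These shares are near those of all probe sets and are not particular to channels.

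Other ion transport genes were taken from a fixed list and compared between 3 and 5 dpf, where shares of calls in so few genes rest on 1 or 2 calls each. Of 27 measured genes for other channels and channel partners (96 listed) 1 was higher and 1 lower (3.7% each), with a median of 0.06. Both encode TRIC channels, whose potassium flow balances the release of calcium from stores. The signal of tmem38b rose by 1.66 (SE 0.14, adjusted p = 0.0057), from a mean of 7.95 to 9.62, and that of tmem38a fell by 1.12 (SE 0.25, adjusted p = 0.047), from 7.63 to 6.51. Of 32 ion pump and exchanger genes (86 listed) 2 were lower (6.25%), the calcium pump genes atp2a2a and atp2a2b, and the median was -0.07. Of 13 connexin genes 1 was lower (7.69%), gjc4b, with a median of 0.08. The 70 entries listed for connexins are names, gj and cx names together, and not 70 separate genes.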

How the data were processed

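Affymetrix Zebrafish Genome Arrays of whole eyes at 3, 4 and 5 dpf (3 arrays each) were used. The deposited values are log2 signals per original probe set, which the authors computed with GCRMA (version not stated in any source used). It is not stated if all 9 arrays went through GCRMA as 1 set, and the values were used as they are. Symbols came from the platform annotation (10802 probe sets with 1 symbol, 135 with several, 4680 with none), and all 56 members matched current symbols through the Entrez identifier.

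Limma 3.58.1 (lmFit and eBayes, R 4.3.3) was fitted over 15502 probe sets, leaving out 115 controls. For 5 against 3 dpf the 6 arrays of these ages entered the fit, for comparisons with 4 dpf all 9. Calls needed at least a 2-fold change and, after Benjamini-Hochberg adjustment, p under 0.05. The number of arrays limits the precision.

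Named genes were those called, the brightest of each family, those of a list of 49 names with a mean of at least 5, and genes stated as chosen later. Some further members, such as clcn3, ano1a and dim probe sets of several families, were named outside these rules. Members and lists were chosen with earlier results of these data known. In lists each gene was taken by its brightest probe set. Replicate numbers went together at 3 and 4 dpf (correlations of deviations from the age means over probe sets 0.599, 0.497 and 0.439), which is seen in the data and not stated in the labels.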

Additional observations from a re-analysis of the deposited data

How the results depend on the processing

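Between 3 and 5 dpf the 5 higher and 2 lower calls became 3 and 1 when signals under 4 were set to 4, and 10 and 4 with no fold limit. The calls lost on setting signals to 4 were those of cacna1ha, scn3b and clic1, whose own signals all lay above 4. Their differences did not change, so these losses came through the spread and the adjustment shared over all probe sets. The dimmer kcnh6a and atp1a1a.2 kept their calls. Requiring a mean signal of at least 5 left 4 higher calls and 1 lower call, since it removes kcnh6a and atp1a1a.2. With 1 array left out the higher calls ran from 1 to 7 (1 without 3 dpf replicate 2 or 3, where kcnh2a is the call that was kept) and the lower calls from 0 to 3 (0 without any of the 3 dpf arrays). Fewer arrays leave fewer residual degrees of freedom. Between 3 and 4 dpf the 4 higher calls became 2 with signals under 4 set to 4. The mean filter removes kcnh6a and the 3 lower calls, which left 3 higher and 0 lower, and no fold limit gave 8 and 5. With 1 array left out the higher calls ran from 2 to 3 and the lower calls from 2 to 4. Between 4 and 5 dpf the count of 0 higher became 2 with no fold limit. No call changed direction.

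With the replicate number as a block, the counts were 5 higher and 2 lower between 3 and 5 dpf, 4 and 3 between 3 and 4 dpf, and 0 and 0 between 4 and 5 dpf, so this block changed no count. The same 4 and 3, and 0 and 0, came from a block fitted to 6 arrays, chosen after seeing the data. Same-numbered arrays correlated at 0.541, 0.008 and 0.041 between 3 and 5 dpf, and at 0.725, -0.072 and -0.031 between 4 and 5 dpf. Replicate 3 of 5 dpf correlated best with replicate 2 of 3 and 4 dpf (0.463 and 0.529), and replicate 2 of 5 dpf with replicate 3 of those ages (0.208 and 0.5). At 5 dpf the numbers are therefore not shown to pair the arrays, and the block says nothing of another pairing. Signals near the lower end of the arrays limit what can be said of the 12 dimmest probe sets.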

Other observations

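Of the 49 names listed for their known roles, 15 were members. Photoreceptor and bipolar cell channel genes on that list, among them kcnv2a, cacna1fa and trpm1a, were not the single symbol of any probe set. The same holds for the muscle channel genes cacna1sa, scn4aa and clcn1a. Probe sets with no symbol or with several were not searched for them. Between 3 and 4 dpf 3 genes of calcium pumps in the reticulum of muscle and other cells were lower, atp2a1 by a difference of -2.99 (SE 0.52, adjusted p = 0.012), atp2a1l by -2.07 (SE 0.55, adjusted p = 0.050) and atp2a2a by -1.72 (SE 0.17, adjusted p = 0.0017, limma). These were 3 of 32 measured pump and exchanger genes (9.38%, against 1.66% of all probe sets tested). Of the skeletal muscle genes 20 of 24 were lower between the same ages, and atp2a1 is counted among them as well.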
